A study of Mus musculus with 9 samples.

Results

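The interleukins and interleukin receptors described here are the protein-coding genes of the mouse GENCODE M21 annotation whose symbol starts with Il and a digit, found in the deposited tables by Ensembl identifier. They number 82 of the 56398 features measured, with 36 ligands, 38 receptor chains, 7 antagonists or decoys and 1 enzyme, Il4i1. Interleukins are secreted proteins through which immune cells, epithelium and stroma signal to one another, and each acts on a cell that carries the matching receptor chains. Most interleukin receptors are assembled from a chain that binds the ligand and a chain shared by several cytokines, such as gp130, the common gamma chain or the interleukin-1 receptor accessory protein. Receptors of the interleukin-1 and interleukin-17 families pass the signal through adaptor proteins to NF-kB, and most of the others use JAK kinases and STAT transcription factors. In the healthy colon, interleukin-18, interleukin-22 and interleukin-17 signalling is known for its part in the defence and repair of the mucosal lining.

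Bulk RNA was sequenced from 9 samples of BALB/c mice in 3 groups of 3. AC samples were colon tumours of mice injected with CT26 cells (a colon carcinoma line of that strain) and given Astragalus with Curcuma phaeocaulis Valeton in a 2:1 ratio at 6 g/kg once a day. Model samples were colon tumours of mice given the same cells and saline once a day, and sham samples were healthy colon. Age, sex and the site of injection are not stated in the labels. Whether the libraries of a group are from different animals is not stated, and p-values therefore describe the spread among these libraries, which may be technical.

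The libraries held 15690038 to 23476056 counted reads, and 3 reads corresponded to 0.112 to 0.240 CPM. CPM values are reads scaled to a common library size, with TMM factors over the 9 libraries, FPKM values are the authors' own, and counting error alone limits values of a few reads. Libraries labelled colon tumour had summed CPM of 6 epithelial markers of 264 to 703 in AC and 184 to 394 in model, against 15322 to 22063 in healthy colon. Defining markers of colon epithelium were therefore at lower levels in the tumour libraries than in healthy colon. Krt20 made up most of each tumour sum, at 178 to 389 CPM. Epcam, another of the 6, had 0.950, 0.553 and 67.6 CPM in AC tumours and 35.6, 0.909 and 0.259 CPM in model tumours, against 2809 to 2955 CPM in healthy colon. Summed macrophage markers ran the other way, with 678 to 1001 CPM in AC tumours, 556 to 774 CPM in model tumours and 45.1 to 81.9 CPM in healthy colon. The first sham library stood apart from the other two, with 875 CPM of B cell markers against 109 and 53.0 CPM, and with smooth muscle markers far below the 1097 and 1199 CPM of the others. The libraries model 1 and AC 3 had the highest epithelial sums of their groups. Calls that appeared or ended without one of these libraries are given with the genes concerned. Sham 2 and sham 3 were much alike, with a chi-square per degree of freedom over genes of 3.06. It was 100 and 119 for the first sham library with each of them, and 10.2 to 28.7 between libraries of a tumour group. Without the first sham library, p-values therefore take the spread of healthy colon from sham 2 and sham 3 alone. In bulk RNA, fewer cells of a type and less RNA per cell cannot be told apart, and the part that cell makeup had in the results below was not tested.

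The genes that made up most of the interleukin transcripts were others in tumours than in healthy colon, at a similar total in FPKM. Summed FPKM over the 82 genes was 350, 298 and 340 in the AC tumours, 327, 372 and 362 in the model tumours and 425, 378 and 361 in healthy colon. Summed CPM, which carries the TMM factors, was higher in every tumour library. It was 1603, 1351 and 1524 in AC tumours, 1512, 1811 and 1642 in model tumours and 1308, 1263 and 1256 in healthy colon. Interleukin-18 alone averaged 44.4% of the FPKM sum in healthy colon. In the tumours the largest shares were those of Il1rl1, with means of 15.8% in AC, 18.7% in model and 0.0875% in healthy colon, and of Il18rap, with 15.2% in AC, 13.5% in model and 0.0508% in healthy colon. Between 33 and 36 of the genes reached 1 FPKM in each tumour library, against 29 in the first sham library and 19 in each of the other sham libraries.

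**Figure D1:**
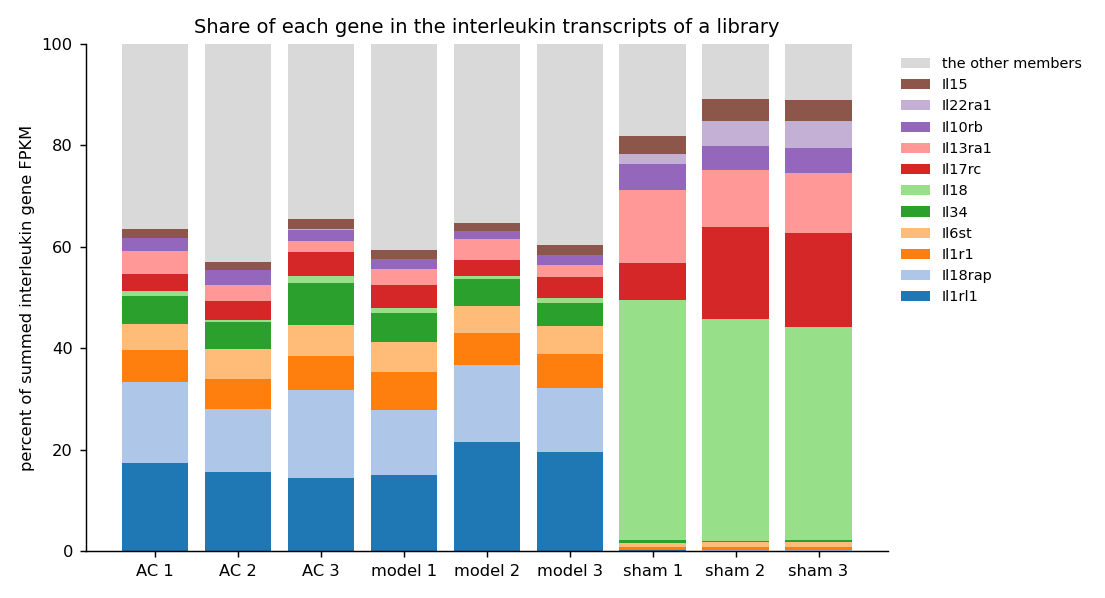
Each bar is 1 library and shows, as a percent of the summed FPKM of the 82 interleukin genes, the share of 11 named genes and of the remaining members. Il1rl1 and Il18rap fill the bottom of the 6 tumour bars, and Il18, Il17rc and Il13ra1 fill most of the 3 healthy colon bars.

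Model tumours differed from healthy colon in 30 of the 49 interleukin genes that could be tested, with 20 higher and 10 lower by edgeR's quasi-likelihood test at an adjusted p under 0.05. Across all 18228 genes tested in that comparison 69.7% were called, 36.8% as higher and 32.9% as lower, against 61.2%, 40.8% and 20.4% of the tested interleukin genes. The share of interleukin genes called was therefore near that of the genome. The median log2 fold change was 0.85 over the 49 and 0.12 over all genes tested. Of 14 ligands tested 8 were higher and 3 lower, of 30 receptor chains 11 were higher and 6 lower, and of 5 antagonists or decoys Il1r2 was higher and Il22ra2 lower. In the interleukin-1 family 9 of 14 tested genes were higher and 1 was lower, and in the gp130 family 5 of 7 were higher. None of 6 tested genes of the interleukin-10 family was higher and 3 were lower, and 3 of 5 interleukin-17 receptor chains were lower. AC tumours differed from the same sham libraries in 30 of 48 tested interleukin genes, with 18 higher and 12 lower, where 68.2% of all 17832 genes tested were called, 35.5% higher and 32.7% lower.

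**Figure D2:**
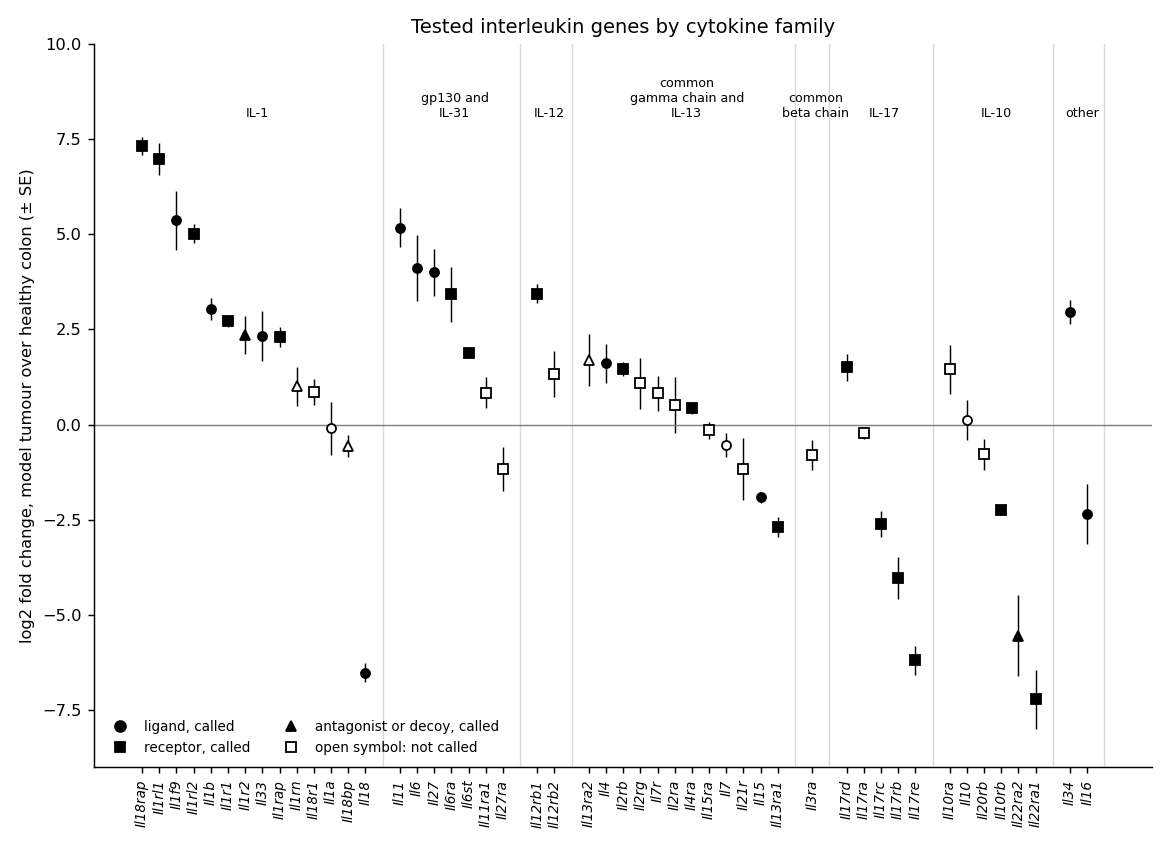
The log2 fold change of each of the 49 tested interleukin genes, model tumour over healthy colon, is drawn with its standard error (n = 3 in each group), grouped by cytokine family. Filled symbols mark edgeR adjusted p under 0.05. Filled symbols lie above 0 in the gp130 family and below 0 in the interleukin-10 family, and Il18 is the one filled interleukin-1 family symbol below 0.

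The largest rises of the whole group were those of Il18rap and Il1rl1, which lie in a cluster of interleukin-1 family receptor genes on chromosome 1. The 6 members Il1r2, Il1r1, Il1rl2, Il1rl1, Il18r1 and Il18rap lie in this order on the plus strand within 477627 bases (chr1:40074079-40551705, GRCm38), and 5 of the 6 were called higher in model tumours. To show the regulatory sequence of the 3 of these 6 that rose most, the promoter windows of Il1rl2, Il1rl1 and Il18rap are printed. That of their neighbour Il18r1, which was not called, is printed for comparison. All are from RefSeq (GRCm38.p6, plus strand, 250 bases before to 50 bases after the transcript start). Capitals mark the letters GGAATTTCC on either strand, a form of the NF-kB site, and on the minus strand they read GGAAATTCC. The Il1rl2 window is chr1:40324339-40324638, the Il1rl1 window at the second of its RefSeq start sites is chr1:40439379-40439678, the Il18rap window is chr1:40515112-40515411 and the Il18r1 window at the first of its start sites is chr1:40465302-40465601.
Il1rl2: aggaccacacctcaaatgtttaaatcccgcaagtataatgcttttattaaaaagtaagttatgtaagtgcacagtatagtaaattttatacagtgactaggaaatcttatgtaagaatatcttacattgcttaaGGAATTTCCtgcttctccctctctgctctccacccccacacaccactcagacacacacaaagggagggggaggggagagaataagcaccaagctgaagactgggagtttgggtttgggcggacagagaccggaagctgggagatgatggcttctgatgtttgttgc
Il1rl1: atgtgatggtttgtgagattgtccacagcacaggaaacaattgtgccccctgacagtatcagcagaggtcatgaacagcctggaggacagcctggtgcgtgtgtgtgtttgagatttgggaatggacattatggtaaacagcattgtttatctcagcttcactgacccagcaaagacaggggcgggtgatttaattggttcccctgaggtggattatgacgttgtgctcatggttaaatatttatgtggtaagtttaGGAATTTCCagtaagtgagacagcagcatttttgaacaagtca
Il18rap: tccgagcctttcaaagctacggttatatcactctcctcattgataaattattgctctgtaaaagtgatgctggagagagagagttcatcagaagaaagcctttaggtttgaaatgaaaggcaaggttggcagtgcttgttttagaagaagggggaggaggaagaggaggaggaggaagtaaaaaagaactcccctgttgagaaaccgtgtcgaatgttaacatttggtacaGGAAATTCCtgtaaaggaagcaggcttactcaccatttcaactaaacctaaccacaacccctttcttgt
Il18r1: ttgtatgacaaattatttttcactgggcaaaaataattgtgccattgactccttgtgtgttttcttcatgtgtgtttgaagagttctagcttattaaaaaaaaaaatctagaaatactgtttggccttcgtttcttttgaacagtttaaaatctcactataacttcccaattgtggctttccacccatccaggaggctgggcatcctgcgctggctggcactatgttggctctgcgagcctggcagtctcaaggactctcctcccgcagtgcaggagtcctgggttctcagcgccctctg
The match begins 116 bases before the start of Il1rl2, 7 bases after the second start of Il1rl1 and 19 bases before the start of Il18rap. The window at the first Il1rl1 start and the 3 windows of Il18r1 hold no such match. The letters were noticed on reading these windows and then searched everywhere, so the matches are a description. They occurred in 104 of 32851 promoter windows (0.317%), or 103 of 27025 genes (0.381%). Of the 65 members with a window 4 had them, the fourth being Il16, which was lower in model tumours. Another NF-kB form, the immunoglobulin kappa light chain site, was in 0 of 65 members against 0.174% of all genes. The letters TTCNNNGAA, a STAT form, were in 10 of 65 members against 9.55% of all genes, and TGANTCA, an AP-1 form, in 14 of 65 against 8.97%. Each was searched on both strands, and no overlap between different motifs was removed.

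Il18rap encodes the accessory chain of the interleukin-18 receptor. It had 321, 217 and 335 CPM in AC tumours, 246, 337 and 263 CPM in model tumours and 1.48, 2.24 and 1.63 CPM in healthy colon. Every tumour library was far above every healthy colon library, and the AC and model libraries overlapped. Fitted on the log2 scale, the difference was 7.32 ± 0.25 (SE; adjusted p = 1.44e-05 by edgeR) for model against sham and 7.36 ± 0.31 (SE; adjusted p = 2.69e-05 by edgeR) for AC against sham. The ligand-binding chain that it pairs with, Il18r1, did not move with it. Il18r1 had 3.37, 1.27 and 3.83 CPM in AC tumours, 3.98, 3.73 and 4.35 CPM in model tumours and 3.11, 1.92 and 1.70 CPM in healthy colon. The model libraries lay above the sham libraries and the AC libraries overlapped both. The log2 fold change for model against sham was 0.85 ± 0.34 (SE; adjusted p = 0.0605 by edgeR), which passed without the first sham library at 1.19 (adjusted p = 0.0042) and with DESeq2 (adjusted p = 0.0367). Per length, Il18rap exceeded Il18r1 by 62.4 to 122 times in FPKM in AC tumours and by 43.2 to 64.6 times in model tumours, whereas in healthy colon the ratio was 0.339 to 0.832.

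Il1rl1 encodes ST2, the receptor of interleukin-33, as a membrane form and a soluble decoy form that gene counts do not separate. It had 358, 277 and 285 CPM in AC tumours, 295, 487 and 416 CPM in model tumours and 4.66, 2.16 and 2.62 CPM in healthy colon. The lowest tumour library was far above the highest healthy colon library. The log2 fold change was 6.98 ± 0.41 (SE; adjusted p = 3.65e-05 by edgeR) for model and 6.60 ± 0.38 (SE; adjusted p = 5.18e-05 by edgeR) for AC against sham. Summed mast cell markers, of cells known to express Il1rl1, were 11.8 to 48.5 CPM in AC tumours, 20.3 to 23.1 CPM in model tumours and 7.93 to 14.2 CPM in healthy colon. Kit, which was not called, made up most of the sums of AC 1, AC 2 and healthy colon. Cpa3, another of these markers, had 0.855, 0.553 and 14.5 CPM in AC tumours, 2.79, 3.18 and 5.60 CPM in model tumours and 0.466, 0.240 and 0.212 CPM in healthy colon. The part of mast cells in the Il1rl1 value was not tested. The ligand of ST2, Il33, an alarmin held in the nucleus of barrier and stromal cells, had 8.27, 15.1 and 11.3 CPM in AC tumours, 24.8, 15.2 and 24.6 CPM in model tumours and 8.71, 1.84 and 2.27 CPM in healthy colon. The model libraries were above all sham libraries, while the lowest AC library was below the first sham library. The Il33 log2 fold change was 2.33 ± 0.65 (SE; adjusted p = 0.0163 by edgeR) for model against sham and 1.41 ± 0.65 (SE; adjusted p = 0.0956 by edgeR) for AC against sham. Without the first sham library these became 3.42 and 2.42, with adjusted p of 1.31e-05 and 6.24e-04.

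Il1rl2 encodes the receptor of the interleukin-36 cytokines. It had 42.8, 38.8 and 55.9 CPM in AC tumours, 40.8, 51.6 and 35.1 CPM in model tumours and 1.48, 1.28 and 1.20 CPM in healthy colon. No tumour library came near the healthy colon range, and the log2 fold change was 5.02 ± 0.25 (SE; adjusted p = 2.55e-05 by edgeR) for model and 5.12 ± 0.27 (SE; adjusted p = 4.13e-05 by edgeR) for AC against sham. Of its ligands, Il1f9 (interleukin-36 gamma) was read in every tumour library, with 27, 37 and 6 reads in AC tumours, 35, 38 and 17 reads in model tumours and 0, 0 and 1 reads in healthy colon. The ratio of CPM, from 90 reads in model tumours against 1 read in healthy colon, was 52.1 with a 95% counting interval of 9.12 to 2081, and Il1f9 was called higher (edgeR adjusted p = 0.00102). The fitted log2 fold change was 5.37, or 7.60 without the one sham library that held a read. Il1f9 did not pass the count filter in AC against sham, where 70 reads against 1 gave a ratio of 47.5 (8.25 to 1902), and it was called higher there without AC 3 (5.66) or without any one sham library. Without the sham library that held the read, the bound was at least 5.51-fold higher in model and at least 5.13-fold higher in AC tumours, against 3 reads a library. The other ligands of this receptor had almost no reads. Il1f8 had 0, 0 and 2 reads in AC tumours, none in model tumours and 2, 3 and 8 reads in healthy colon, and Il1f6 had 1 read in all.

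Il1r1 is the signalling receptor for interleukin-1 alpha and beta, and Il1r2 is a decoy that binds them without signalling. Il1r1 had 119.5, 96.8 and 124 CPM in AC tumours, 137, 131 and 134 CPM in model tumours and 17.1, 23.4 and 21.9 CPM in healthy colon. The 3 model libraries were close together and far above healthy colon, and the log2 fold change was 2.71 ± 0.15 (SE; adjusted p = 2.90e-05 by edgeR) for model and 2.46 ± 0.18 (SE; adjusted p = 8.83e-05 by edgeR) for AC against sham. Il1r2 had 2.66, 3.54 and 1.94 CPM in AC tumours, 2.98, 4.55 and 1.71 CPM in model tumours and 0.777, 0.401 and 0.637 CPM in healthy colon. Tumour and healthy colon libraries did not overlap, with a log2 fold change of 2.35 ± 0.50 (SE; adjusted p = 0.00547 by edgeR) for model and 2.14 ± 0.41 (SE; adjusted p = 0.00373 by edgeR) for AC against sham. Il1rap, the accessory chain that serves the receptors of interleukin-1, interleukin-33 and interleukin-36, had 15.5, 18.4 and 25.6 CPM in AC tumours, 34.2, 22.1 and 26.9 CPM in model tumours and 6.53, 4.81 and 5.66 CPM in healthy colon. It was higher in all 6 tumours than in any healthy colon library, with 2.31 ± 0.26 (SE; adjusted p = 3.67e-04 by edgeR) for model and 1.81 ± 0.29 (SE; adjusted p = 0.00171 by edgeR) for AC against sham on the log2 scale. The rise of the accessory chain was smaller than that of Il1rl1, and Il1rl1 over Il1rap in FPKM was 18.4 to 38.1 in AC tumours, 14.2 to 36.3 in model tumours and 0.742 to 1.18 in healthy colon. Exons of Il1rap overlap those of another annotated gene.

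The genes that flank the receptor cluster did not share one pattern. Map4k4, a kinase gene on the Il1r2 side, had 395 CPM in AC tumours, 424 CPM in model tumours and 36.5 CPM in healthy colon on average and a log2 fold change of 3.55 ± 0.18 (SE; adjusted p = 2.47e-05 by edgeR) for model against sham. On the other side Slc9a4, a sodium-hydrogen exchanger, had too few reads to be tested against sham, and the next gene, the exchanger Slc9a2, had 0.428, 0.111 and 16.5 CPM in AC tumours, 6.14, 0.227 and 0.207 CPM in model tumours and 783, 1036 and 1075 CPM in healthy colon. Slc9a2 was lower in model tumours (-8.68 ± 1.53 (SE; adjusted p = 0.00234 by edgeR) on the log2 scale), and its 2 highest tumour values were in the libraries with the highest epithelial marker sums.

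**Figure D3:**
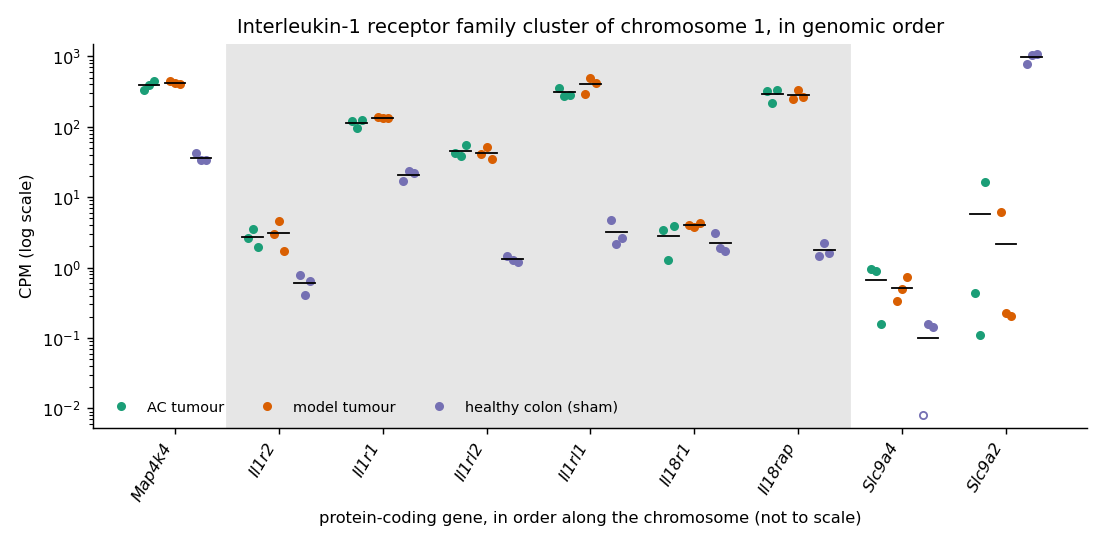
CPM on a log axis is plotted for each library over the protein-coding genes of the chromosome 1 receptor cluster and its flanks, with black bars at group means (n = 3) and open circles for 0 reads, set at the bottom. Within the shaded members, tumour points lie above healthy colon points except at Il18r1, where AC tumours and healthy colon overlap.

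Among the ligands of the interleukin-1 family, Il18 moved against its receptor chain. Il18 (chr9:50554827-50581840, GRCm38), the cytokine that epithelial cells make constitutively and that caspase-1 activates, had 2.85, 1.44 and 3.93 CPM in AC tumours, 2.72, 1.91 and 3.06 CPM in model tumours and 259, 235 and 221 CPM in healthy colon. Healthy colon was far above every tumour library, and AC and model libraries overlapped. The fold change of Il18 on the log2 scale was -6.52 ± 0.24 (SE; adjusted p = 1.57e-05 by edgeR) for model and -6.42 ± 0.42 (SE; adjusted p = 6.53e-05 by edgeR) for AC against sham. Il18bp, the secreted protein that binds and neutralises interleukin-18, had 15.9, 12.3 and 12.5 CPM in AC tumours, 13.4, 14.7 and 14.6 CPM in model tumours and 29.5, 18.0 and 15.8 CPM in healthy colon. In CPM it was below all healthy colon libraries in each tumour except AC 1, which was just above the lowest of them. Its share of the interleukin FPKM sum was 1.44% to 1.76% in AC and 1.47% to 1.56% in model tumours. In healthy colon that share was 1.835%, 1.15% and 1.02%, so the tumours lay above sham 2 and sham 3 there. Il18bp did not pass the test (model against sham -0.56 ± 0.28 (SE; adjusted p = 0.118 by edgeR) on the log2 scale). It passed without the third sham library (-0.81, adjusted p = 0.037) and with DESeq2 (adjusted p = 0.0453). In FPKM, Il18bp over Il18 was 1.08 to 2.91 in AC tumours and 1.63 to 2.62 in model tumours, against 0.0244 to 0.0388 in healthy colon. The 6 epithelial markers were all lower in model and AC tumours in the same libraries, and their part in the fall of Il18 was not tested.

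Il1b, the inducible pro-inflammatory cytokine of myeloid cells, had 7.65, 18.9 and 7.24 CPM in AC tumours, 20.1, 14.6 and 17.7 CPM in model tumours and 2.72, 1.84 and 1.84 CPM in healthy colon. Tumour and healthy colon libraries did not overlap. Its log2 fold change was 3.04 ± 0.29 (SE; adjusted p = 1.85e-04 by edgeR) for model and 2.38 ± 0.47 (SE; adjusted p = 0.0043 by edgeR) for AC against sham. Il1rn, the receptor antagonist, had 15.2, 21.5 and 10.5 CPM in AC tumours, 12.4, 16.2 and 22.8 CPM in model tumours and 15.2, 5.05 and 5.17 CPM in healthy colon, and the first sham library was as high as the tumours. It did not pass the test with that library (model against sham 1.00 ± 0.51 (SE; adjusted p = 0.119 by edgeR) on the log2 scale) and passed without it (1.77, adjusted p = 5.40e-04). Antagonist over cytokine, Il1rn over Il1b in FPKM, was 0.391 to 0.685 in AC tumours, 0.212 to 0.443 in model tumours and 0.944 to 1.92 in healthy colon. Il1a, the other agonist of the same receptor, had 1.57, 1.66 and 0.944 CPM in AC tumours, 0.930, 1.32 and 1.56 CPM in model tumours and 2.72, 0.320 and 0.991 CPM in healthy colon and showed no difference that passed the test (adjusted p = 0.906). Of 4 neutrophil and 6 macrophage markers, all were called higher in model than in sham, as was Il1b, and their part in the Il1b value was not tested.

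Of 8 genes of the machinery that processes interleukin-1 and interleukin-18 precursors, 1 was higher and 6 were lower in model tumours, where 36.8% of all genes tested were higher and 32.9% lower. Nlrp3, the inflammasome sensor, had 17.4, 18.9 and 6.92 CPM in AC tumours, 10.2, 17.5 and 10.6 CPM in model tumours and 0.155, 0.240 and 0.212 CPM in healthy colon, with a log2 fold change of 5.94 ± 0.40 (SE; adjusted p = 5e-05 by edgeR). Its adaptor Pycard had 3.33, 2.32 and 4.25 CPM in AC tumours, 3.13, 2.41 and 2.70 CPM in model tumours and 114, 132 and 137 CPM in healthy colon, with a log2 fold change of -5.51 ± 0.18 (SE; adjusted p = 1.44e-05 by edgeR). Another sensor, Nlrc4, averaged 3.58 CPM in AC tumours, 2.84 CPM in model tumours and 113 CPM in healthy colon, and caspase-1 (Casp1) averaged 86.7 CPM in AC tumours, 108 CPM in model tumours and 362 CPM in healthy colon. Both were lower in model tumours, at -5.28 ± 0.29 (SE; adjusted p = 2.96e-05 by edgeR) and -1.73 ± 0.16 (SE; adjusted p = 1.47e-04 by edgeR) on the log2 scale. The Nlrp3 sensor was higher and its adaptor lower in the same tumours. Of 21 adaptor and NF-kB pathway genes of the interleukin-1 and interleukin-17 receptors 2 were higher and 10 lower, in all 57.1% of the list against 69.7% of all genes tested. The kinase Irak1 was higher at 0.97 ± 0.15 (SE; adjusted p = 0.00152 by edgeR), and the NF-kB cofactor Nfkbiz, an interleukin-17 and interleukin-1 response gene, was lower at -1.71 ± 0.18 (SE; adjusted p = 2.64e-04 by edgeR), both log2 fold changes for model against sham.

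In the gp130 family the ligands and the signal chain were higher together. Il11 (chr7:4772373-4782859), a stromal cytokine with a known part in colon tumours of mice, had 14.4, 22.9 and 12.7 CPM in AC tumours, 13.5, 14.2 and 19.4 CPM in model tumours and 0.777, 0.160 and 0.354 CPM in healthy colon. Each tumour was far above the highest healthy colon library, with a log2 fold change of 5.17 ± 0.51 (SE; adjusted p = 2.08e-04 by edgeR) for model and 5.24 ± 0.56 (SE; adjusted p = 3.48e-04 by edgeR) for AC against sham. Without the first sham library these were 5.90 and 5.88. Il6, the founding cytokine of the family, had few reads, with 27, 40 and 13 reads in AC tumours, 59, 28 and 13 reads in model tumours and 2, 0 and 1 reads in healthy colon. Model against sham gave a ratio of CPM of 19.3 with a 95% counting interval of 6.42 to 95.2, and AC against sham gave 18.1 (5.97 to 89.6), with edgeR adjusted p of 0.00486 and 0.00458. The fitted log2 fold change of 4.11 became 5.03 without the first and 3.50 without the second sham library. Il27, the p28 subunit of interleukin-27, had 13, 17 and 22 reads in AC tumours, 26, 18 and 18 reads in model tumours and 1, 1 and 0 reads in healthy colon. Its ratio was 18.0 (4.76 to 152) for model and 17.6 (4.64 to 149) for AC against sham, with edgeR adjusted p of 0.00127 and 0.00265. The fitted log2 fold change for model of 4.0 was 3.35 without the third sham library.

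Il6st (chr13:112464070-112510086) encodes gp130, the chain through which the whole family signals. It had 166, 173 and 190.1 CPM in AC tumours, 189, 199.8 and 187 CPM in model tumours and 53.9, 49.7 and 53.9 CPM in healthy colon. Spread within groups was small and the groups did not overlap with healthy colon, with a log2 fold change of 1.89 ± 0.12 (SE; adjusted p = 4.19e-05 by edgeR) for model and 1.75 ± 0.13 (SE; adjusted p = 9.56e-05 by edgeR) for AC against sham. Il6ra, the interleukin-6 binding chain found mainly on leukocytes and hepatocytes, had 63.2, 43.8 and 53.6 CPM in AC tumours, 55.6, 50.8 and 55.2 CPM in model tumours and 10.8, 2.64 and 1.49 CPM in healthy colon. Tumours were above all healthy colon libraries, of which the first was the highest. For model against sham the Il6ra log2 fold change was 3.42 ± 0.73 (SE; adjusted p = 0.00525 by edgeR), and 4.75 without that library, and for AC against sham 3.40 ± 0.75 (SE; adjusted p = 0.00656 by edgeR), and 4.64 without it. Il11ra1, the interleukin-11 binding chain, had 6.18, 7.41 and 10.8 CPM in AC tumours, 9.38, 7.18 and 12.7 CPM in model tumours and 2.80, 6.17 and 7.65 CPM in healthy colon and was not called (model against sham adjusted p = 0.0998). Il11ra1 has a near copy, Il11ra2, with 0 to 4 reads a library, between which reads may be shared. Il27ra had 1.95, 1.44 and 3.36 CPM in AC tumours, 2.20, 2.59 and 2.80 CPM in model tumours and 10.5, 4.25 and 2.19 CPM in healthy colon and was not called in either tumour group. It was lower in both without the third sham library (-1.61 for model, adjusted p = 0.0214, and -1.73 for AC, adjusted p = 0.0394). In AC against sham it was also lower with DESeq2 (-1.43, adjusted p = 0.035) and without both sham 1 and AC 3 (-0.97, adjusted p = 0.0417).

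Related ligands that carry no interleukin symbol were listed as well. Of 9 listed 5 could be tested, and 3 were higher and none lower, where 36.8% of all genes were higher. Among them were Lif at 3.80 ± 0.38 (SE; adjusted p = 2.25e-04 by edgeR) and Osm at 2.67 ± 0.94 (SE; adjusted p = 0.0396 by edgeR), gp130 cytokines both, on the log2 scale for model against sham. Lif averaged 24.0 CPM in AC tumours, 18.8 CPM in model tumours and 1.37 CPM in healthy colon. In the JAK, STAT and SOCS list 4 of 19 genes were higher and 7 lower in model tumours, in all 57.9% of the list, where 69.7% of all genes tested were called. Socs5, a suppressor of cytokine signalling, was higher at 3.55 ± 0.15 (SE; adjusted p = 1.78e-05 by edgeR), Socs3, the feedback inhibitor that gp130 signalling induces, at 0.98 ± 0.16 (SE; adjusted p = 0.00164 by edgeR), and Jak3, the kinase of the common gamma chain, at 2.75 ± 0.20 (SE; adjusted p = 6.54e-05 by edgeR). Cish, a target of STAT5, was lower at -3.03 ± 0.38 (SE; adjusted p = 5.57e-04 by edgeR), and Stat3, the main transcription factor of the gp130 family, at -0.68 ± 0.18 (SE; adjusted p = 0.0134 by edgeR).

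Il34 is the second ligand of the macrophage growth factor receptor Csf1r and shares no sequence family with other interleukins. It had 32.9, 26.6 and 47.0 CPM in AC tumours, 31.7, 33.9 and 27.7 CPM in model tumours and 5.52, 2.80 and 3.75 CPM in healthy colon. The lowest tumour library was well above the highest healthy colon library, with a log2 fold change of 2.96 ± 0.30 (SE; adjusted p = 2.50e-04 by edgeR) for model and 3.14 ± 0.38 (SE; adjusted p = 5.62e-04 by edgeR) for AC against sham. Csf1r, its receptor, averaged 89.0 CPM in AC tumours, 89.8 CPM in model tumours and 13.5 CPM in healthy colon and was higher at 2.74 ± 0.27 (SE; adjusted p = 2.18e-04 by edgeR) for model against sham. Csf1r is itself one of the 6 macrophage markers, all of which were called higher in the same libraries, and the part of macrophage number in its value was not tested.

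**Figure D4:**
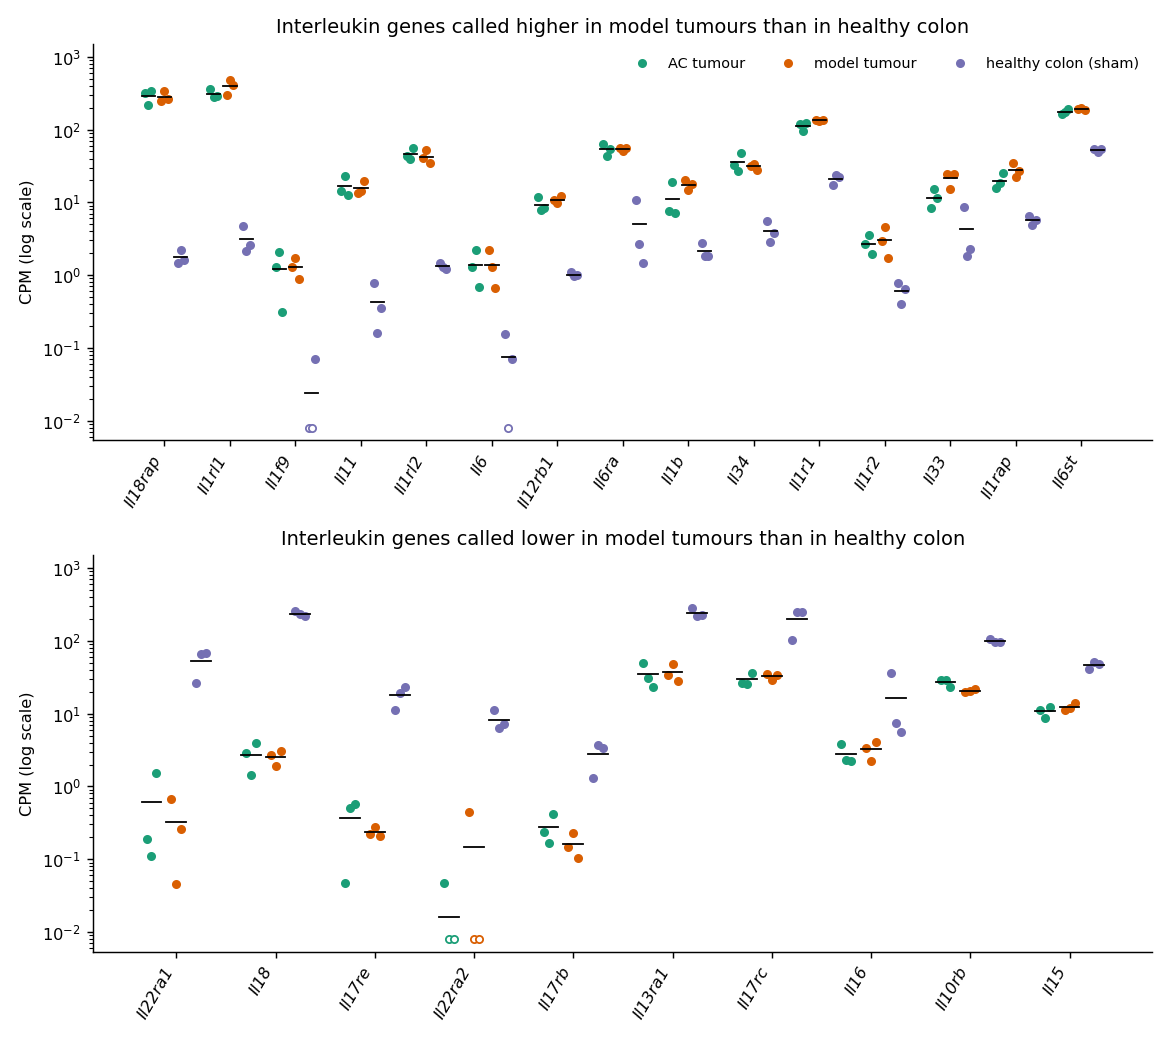
CPM of the interleukin genes named for model against sham is plotted on a log axis, 1 point for each library and a black bar for each group mean (n = 3), with AC, model and sham from left to right and open circles for 0 reads, set at the bottom. In the upper panel the tumour points lie above the healthy colon points except in Il33, and in the lower panel all tumour points lie below the healthy colon points.

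The largest falls among receptor chains were those of Il22ra1 and Il17re, both of which act on epithelium. Il22ra1 (chr4:135728172-135752140), the epithelial chain of the interleukin-22 receptor, had 0.190, 0.111 and 1.52 CPM in AC tumours, 0.670, 0.0455 and 0.259 CPM in model tumours and 26.4, 65.4 and 68.5 CPM in healthy colon. Healthy colon was far above every tumour, and the highest values of the tumour groups were those of AC 3 and model 1. On the log2 scale the change was -7.22 ± 0.77 (SE; adjusted p = 2.91e-04 by edgeR) for model and -6.41 ± 0.95 (SE; adjusted p = 0.0013 by edgeR) for AC against sham. Without model 1 it was -8.40 and without AC 3 -8.36. Its partner Il10rb, which also serves interleukin-10 and interferon lambda, is expressed beyond the epithelium and had 29.3, 29.2 and 23.6 CPM in AC tumours, 20.1, 20.3 and 21.8 CPM in model tumours and 105, 95.7 and 96.8 CPM in healthy colon. All tumours were below healthy colon, with -2.25 ± 0.13 (SE; adjusted p = 3.17e-05 by edgeR) for model and -1.86 ± 0.14 (SE; adjusted p = 9.35e-05 by edgeR) for AC against sham on the log2 scale. Exons of Il10rb overlap those of another annotated gene. Ifnlr1, the interferon lambda receptor that pairs with the same chain, averaged 0.785 CPM in AC tumours, 0.373 CPM in model tumours and 51.2 CPM in healthy colon, with -6.93 ± 0.79 (SE; adjusted p = 3.78e-04 by edgeR) for model against sham.

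Il22ra2 encodes a secreted decoy that binds interleukin-22. It had 1, 0 and 0 reads in AC tumours, 12, 0 and 0 reads in model tumours and 144, 80 and 101 reads in healthy colon. All 12 reads of the model group lay in model 1, and the AC group had 1 read. Model against sham gave a log2 fold change of -5.55 ± 1.06 (SE; adjusted p = 0.00334 by edgeR), and without model 1 it was -10.06. For AC against sham the ratio of CPM was 479 times lower in AC, with a 95% counting interval of 85.4 to 18981 (edgeR adjusted p = 1.54e-04), and without AC 1, which held that read, Il22ra2 was at least 51.0-fold lower against a floor of 3 reads a library. Interleukin-22 itself had no reads in the 6 tumours, against 6, 0 and 2 reads in healthy colon. Il10ra, the interleukin-10 binding chain of leukocytes, had 16.9, 14.0 and 18.5 CPM in AC tumours, 23.1, 16.4 and 20.6 CPM in model tumours and 15.2, 3.12 and 3.61 CPM in healthy colon. It did not pass the test (model against sham adjusted p = 0.0838), while without the first sham library it was higher at 2.60 (adjusted p = 9.07e-06). Il10 itself had 1.57, 0.332 and 0.525 CPM in AC tumours, 0.893, 1.09 and 0.829 CPM in model tumours and 1.55, 0.481 and 0.566 CPM in healthy colon, with groups overlapping and an adjusted p of 0.848. Il20rb, a chain of the receptors for interleukins 19, 20 and 24, had 0.855, 0.775 and 0.892 CPM in AC tumours, 0.967, 2.14 and 1.19 CPM in model tumours and 1.79, 2.56 and 3.12 CPM in healthy colon. It was lower in AC against sham (-1.55 ± 0.33 (SE; adjusted p = 0.00591 by edgeR) on the log2 scale) and not called in model against sham (adjusted p = 0.124).

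All 5 interleukin-17 receptor chains were tested and they moved unequally. Il17rc, which pairs with Il17ra to bind interleukins 17A and 17F, had 26.6, 25.7 and 36.5 CPM in AC tumours, 34.9, 28.6 and 34.0 CPM in model tumours and 105, 251 and 253 CPM in healthy colon. The tumour libraries were all below healthy colon, in which the first library was under the other two. The log2 fold change was -2.61 ± 0.34 (SE; adjusted p = 6.46e-04 by edgeR) for model and -2.75 ± 0.37 (SE; adjusted p = 8.45e-04 by edgeR) for AC against sham. Il17ra, the shared chain, had 36.8, 43.5 and 27.9 CPM in AC tumours, 37.7, 35.1 and 31.3 CPM in model tumours and 41.1, 42.9 and 39.4 CPM in healthy colon. Its values were near those of healthy colon, and it was not called in model against sham (-0.23 ± 0.15 (SE; adjusted p = 0.217 by edgeR) on the log2 scale). It was lower with DESeq2 (-0.33, adjusted p = 0.0484) and without both sham 1 and model 1 (-0.36, adjusted p = 0.0243). With no scaling factors, where the median over all genes tested was 0.72 in place of 0.12, its value was 0.38 (adjusted p = 0.0453).

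Il17re (chr6:113458484-113470758), the epithelial receptor chain for interleukin-17C, had 0.0475, 0.498 and 0.577 CPM in AC tumours, 0.223, 0.273 and 0.207 CPM in model tumours and 11.3, 19.5 and 23.4 CPM in healthy colon. Healthy colon exceeded all tumours, with -6.19 ± 0.39 (SE; adjusted p = 4.14e-05 by edgeR) for model and -5.57 ± 0.71 (SE; adjusted p = 7.02e-04 by edgeR) for AC against sham on the log2 scale. Il17rb, the chain that binds interleukin-25, had 0.238, 0.166 and 0.420 CPM in AC tumours, 0.149, 0.227 and 0.104 CPM in model tumours and 1.32, 3.69 and 3.40 CPM in healthy colon. The groups did not overlap with healthy colon, and the log2 fold change was -4.03 ± 0.55 (SE; adjusted p = 7.84e-04 by edgeR) for model and -3.29 ± 0.57 (SE; adjusted p = 0.00239 by edgeR) for AC against sham. Il17rd, known as an inhibitor of fibroblast growth factor signalling, was the chain that was higher, with 14.6, 14.1 and 9.65 CPM in AC tumours, 13.3, 18.1 and 11.8 CPM in model tumours and 2.80, 6.41 and 6.23 CPM in healthy colon. It was called at 1.51 ± 0.35 (SE; adjusted p = 0.00809 by edgeR) for model and 1.32 ± 0.35 (SE; adjusted p = 0.0148 by edgeR) for AC against sham, the AC call being lost without AC 1 (adjusted p = 0.0504). None of the 6 interleukin-17 ligands had enough reads to be tested. Il17c had 1 to 9 reads in each library, and Il17d had 0 to 2 reads in each tumour, against 4, 13 and 18 reads in healthy colon. With fewer libraries Il17d passed the count filter and was lower, at -4.13 for model and -4.87 for AC against sham without the first sham library. Il17a had 2 reads in all, in the first sham library. Il17f had 5, 2 and 0 reads in AC tumours, 3, 6 and 5 reads in model tumours and 0, 0 and 0 reads in healthy colon. With no count filter it was called higher in model against sham (5.00, adjusted p = 0.0307 by edgeR), where 22.7% of all genes tested were higher.

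Among the genes of the common gamma chain receptors, both directions occurred. Il13ra1, which binds interleukin-13 together with Il4ra, had 50.2, 30.5 and 23.3 CPM in AC tumours, 34.5, 48.5 and 28.1 CPM in model tumours and 284, 218 and 225 CPM in healthy colon. All tumours were below healthy colon, with -2.70 ± 0.26 (SE; adjusted p = 1.81e-04 by edgeR) for model and -2.81 ± 0.31 (SE; adjusted p = 4.05e-04 by edgeR) for AC against sham on the log2 scale. Il13ra2, the decoy for interleukin-13, had 3.56, 4.76 and 1.94 CPM in AC tumours, 4.80, 6.00 and 4.25 CPM in model tumours and 3.19, 1.04 and 0.425 CPM in healthy colon and was not called (model against sham adjusted p = 0.0636). Without the first sham library it was higher at 2.83 (adjusted p = 2.85e-04). Il4ra, the binding chain for interleukin-4, had 89.3, 81.9 and 59.6 CPM in AC tumours, 81.3, 95.2 and 71.8 CPM in model tumours and 61.4, 66.0 and 59.3 CPM in healthy colon and a log2 fold change of 0.43 ± 0.15 (SE; adjusted p = 0.0387 by edgeR) for model against sham, near the threshold. That call was lost without model 1, model 2, sham 2 or sham 3 (adjusted p = 0.0849 to 0.174), with DESeq2 or RLE factors (adjusted p = 0.0838 and 0.0812) and with all 9 libraries in 1 fit (adjusted p = 0.0518). In AC against sham Il4ra was not called, except as higher without AC 3 (0.46, adjusted p = 0.0341), without both sham 1 and AC 3 (0.39, adjusted p = 0.00259) and with no scaling factors.

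Il4, the cytokine of type 2 responses, had 3.85, 3.32 and 2.36 CPM in AC tumours, 2.53, 3.18 and 3.16 CPM in model tumours and 1.17, 0.320 and 1.42 CPM in healthy colon. The model libraries were above the sham libraries, with 1.61 ± 0.50 (SE; adjusted p = 0.026 by edgeR) for model and 1.70 ± 0.53 (SE; adjusted p = 0.0274 by edgeR) for AC against sham on the log2 scale. The model call was lost without any one model library (adjusted p = 0.0513 to 0.0708), and the AC call without AC 1 (adjusted p = 0.0838) or AC 2 (adjusted p = 0.0699). Il13 and Il5, which lie beside Il4 on chromosome 11, had none and 2 reads in the 3 AC libraries together, 6 and 9 in the model libraries, and none and 1 in the sham libraries.

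Il15, which sustains natural killer and memory T cells, had 11.3, 8.69 and 12.4 CPM in AC tumours, 11.3, 12.0 and 13.8 CPM in model tumours and 41.3, 51.0 and 48.9 CPM in healthy colon. All tumours were below healthy colon, with -1.91 ± 0.15 (SE; adjusted p = 8.17e-05 by edgeR) for model and -2.11 ± 0.20 (SE; adjusted p = 2.32e-04 by edgeR) for AC against sham on the log2 scale. Its presenting chain Il15ra had 14.6, 8.30 and 13.4 CPM in AC tumours, 13.2, 12.8 and 18.5 CPM in model tumours and 13.2, 18.1 and 18.8 CPM in healthy colon, with groups overlapping and no call in either tumour group (adjusted p = 0.545 for model against sham). It was called lower in AC against sham without the first sham library (-0.67, adjusted p = 0.0452). Il2rb, the signalling chain of the interleukin-2 and interleukin-15 receptors, had 26.8, 14.2 and 22.6 CPM in AC tumours, 24.9, 22.6 and 23.2 CPM in model tumours and 9.56, 7.69 and 8.71 CPM in healthy colon. Tumours were above healthy colon, with 1.46 ± 0.19 (SE; adjusted p = 5.70e-04 by edgeR) for model and 1.30 ± 0.29 (SE; adjusted p = 0.00705 by edgeR) for AC against sham on the log2 scale. Summed NK cell markers were 7.53 to 14.5 CPM in AC tumours, 9.96 to 11.6 CPM in model tumours and 8.94 to 9.98 CPM in healthy colon.

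Calls of several lymphocyte receptor chains depended on the first sham library. Il2rg, the common gamma chain itself, had 33.4, 29.6 and 38.9 CPM in AC tumours, 24.7, 27.9 and 37.2 CPM in model tumours and 29.4, 7.69 and 4.74 CPM in healthy colon, so that this library was near the tumours and the other two were far below. Its log2 fold change for model against sham was 1.08 ± 0.67 (SE; adjusted p = 0.192 by edgeR), and without that library 2.31 (adjusted p = 1.30e-04). Il7r and Il2ra likewise were not called with it (adjusted p = 0.15 and 0.559) and were higher without it, at 1.41 (adjusted p = 0.00384) and 1.66 (adjusted p = 0.0122). Summed T cell markers were 9.30 to 15.5 CPM in AC tumours, 14.8 to 22.0 CPM in model tumours and 36.9 to 85.8 CPM in healthy colon. Summed B cell markers were 1.95 to 3.36, 5.05 to 15.6 and 53.0 to 875 CPM in the same order. Their part in these receptor values was not tested. Il21r, the interleukin-21 receptor of B and T cells, had 6.03, 8.02 and 5.09 CPM in AC tumours, 6.14, 4.37 and 4.98 CPM in model tumours and 27.0, 3.69 and 3.96 CPM in healthy colon, and its log2 fold change was -1.17 ± 0.82 (SE; adjusted p = 0.24 by edgeR). Interleukin-21 had 0 reads in all 6 tumours, against 42, 5 and 2 reads in healthy colon, and was at least 9.44-fold lower in model and at least 8.17-fold lower in AC tumours against a floor of 3 reads a library. Without the first sham library, which held 42 of the 49 reads, these bounds were 2.02 and 1.75. Without the first sham library 29 interleukin genes were called higher in model tumours, among them the 20 of the full comparison, where 42.4% of all genes tested were called higher. In AC against sham, leaving that library out brought in Il10ra, Il13ra2, Il1rn, Il2ra and Il2rg as higher, at log2 fold changes of 1.55 to 2.39. Il1a, Il21r and Il7r were called higher in AC against sham without both sham 1 and AC 3, at 1.20, 0.81 and 0.94. Il12b, which had too few reads for the full comparison, was higher in model tumours without the first sham library (3.27, adjusted p = 0.0494) or without model 1 (3.36, adjusted p = 0.0119).

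Il16, a chemoattractant precursor of lymphocytes, had 3.85, 2.32 and 2.26 CPM in AC tumours, 3.39, 2.23 and 4.04 CPM in model tumours and 36.0, 7.37 and 5.59 CPM in healthy colon. Its tumour values were below those of all sham libraries, and the log2 fold change of -2.36 ± 0.79 (SE; adjusted p = 0.0327 by edgeR) for model against sham rested largely on the first sham library. Without that library it was -0.97 (adjusted p = 0.0168), and the call was lost without any one model library (adjusted p = 0.0777 to 0.11). In AC against sham it was -2.57 ± 0.80 (SE; adjusted p = 0.0267 by edgeR), and -1.26 without the first sham library, and the call was lost without any one AC library. Il16 exons overlap those of Stard5 on the opposite strand.

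In the interleukin-12 family 2 of 3 receptor chains and 0 of 3 ligands had enough reads to be tested against healthy colon. In AC against model 1 ligand, Il23a, was tested and not called. Il12rb1, the chain shared by the interleukin-12 and interleukin-23 receptors, had 11.9, 7.80 and 8.23 CPM in AC tumours, 10.8, 9.73 and 12.2 CPM in model tumours and 1.09, 0.961 and 0.991 CPM in healthy colon. Healthy colon was near 1 CPM in each library and the tumours were far higher, with 3.43 ± 0.25 (SE; adjusted p = 6.63e-05 by edgeR) for model and 3.19 ± 0.31 (SE; adjusted p = 2.33e-04 by edgeR) for AC against sham on the log2 scale. Il12rb2, the partner chain, had 0.760, 0.719 and 1.21 CPM in AC tumours, 0.558, 1.86 and 0.622 CPM in model tumours and 0.311, 0.481 and 0.425 CPM in healthy colon. It was not called in model against sham (adjusted p = 0.09), and its AC against sham call (1.14 ± 0.40 (SE; adjusted p = 0.0414 by edgeR)) was lost whichever single library was left out. Il12b, the p40 subunit, had 1, 2 and 0 reads in AC tumours, 3, 12 and 12 reads in model tumours and 1, 0 and 1 reads in healthy colon. Il12a, the p35 subunit, had 3, 0 and 0 reads in AC tumours, 1, 2 and 0 reads in model tumours and 19, 5 and 7 reads in healthy colon. In the counting ratio Il12a was 17.8 times lower in model tumours than in healthy colon (95% interval 5.57 to 91.2) and 15.2 times lower in AC tumours (4.75 to 77.9). Of the 31 reads in healthy colon 19 were in the first sham library, and without it these ratios were 10.2 (2.77 to 56.6) and 8.75 (2.36 to 48.3). Without model 2, which held 2 of the 3 model reads, the model ratio was 36.3 (6.04 to 1478). Il23r had 5 reads in model 1, none in the other 5 tumours and 3, 7 and 5 reads in healthy colon.

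AC tumours were set against model tumours to ask whether the herb pair moved these genes. None of the 47 interleukin genes tested passed edgeR's test at an adjusted p under 0.05, and 0% of all 17137 genes tested did. At an unadjusted p under 0.05 there were 3 interleukin genes, Il7, Il10rb and Il33, where 13.1% of all genes tested were past that limit. DESeq2 called 2, Il7 and Il33, both lower in AC tumours, where it called 2.07% of the 14738 genes it tested. Log2 fold changes were below 0 in 33 genes and above 0 in 14, with a median of -0.13 over the 47 and 0.01 over all genes tested. The AC and model libraries did not overlap in 5 of the 47 genes, against 19% of all genes tested.

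Il7 (chr3:7569994-7613760), a growth factor of lymphocytes made by stroma and epithelium, had 3.80, 4.09 and 5.66 CPM in AC tumours, against 8.19, 9.32 and 7.57 CPM in model tumours. Each AC library was below each model library, and the log2 fold change was -0.89 ± 0.22 (SE; adjusted p = 0.249 by edgeR). DESeq2 gave -0.89 (adjusted p = 0.0349), and edgeR without AC 3 gave -1.10 (adjusted p = 0.0355). Healthy colon had 17.2, 8.89 and 10.3 CPM of Il7. Set against these shared sham libraries, Il7 was called lower in AC tumours (-1.42 ± 0.36 (SE; adjusted p = 0.0124 by edgeR)) and not in model tumours (-0.53 ± 0.31 (SE; adjusted p = 0.173 by edgeR)). The AC call against sham was lost without AC 1 (adjusted p = 0.0533) or AC 2 (adjusted p = 0.0517). Its receptor chain Il7r had 5.75, 6.97 and 3.25 CPM in AC tumours, against 5.77, 9.73 and 9.23 CPM in model tumours, with overlap and a log2 fold change of -0.63 ± 0.31 (SE; adjusted p = 0.42 by edgeR).

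Il33 (chr19:29925114-29960718) had 8.27, 15.1 and 11.3 CPM in AC tumours, against 24.8, 15.2 and 24.6 CPM in model tumours, so that the highest AC library was just under the lowest model library. In edgeR's fit the log2 fold change was -0.90 ± 0.27 (SE; adjusted p = 0.272 by edgeR), and DESeq2 gave -0.90 (adjusted p = 0.0407). Summed fibroblast markers, of a cell type that makes interleukin-33, were 197 to 386 CPM in AC tumours and 375 to 434 CPM in model tumours. None of these 4 markers was called in AC against model. Pdgfra and Col1a1 were lower in every AC library than in any model library, whereas Dcn and Lum overlapped. The part of fibroblasts in the Il33 value was not tested. Il10rb had 29.3, 29.2 and 23.6 CPM in AC tumours, against 20.1, 20.3 and 21.8 CPM in model tumours, all AC libraries above all model libraries, with a log2 fold change of 0.40 ± 0.12 (SE; adjusted p = 0.264 by edgeR).

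The other genes with the smallest p in each direction were further from the threshold. Il1r1 had 119.5, 96.8 and 124 CPM in AC tumours, against 137, 131 and 134 CPM in model tumours, with no overlap and a log2 fold change of -0.24 ± 0.11 (SE; adjusted p = 0.382 by edgeR). Il1rap had 15.5, 18.4 and 25.6 CPM in AC tumours, against 34.2, 22.1 and 26.9 CPM in model tumours, with overlap and a log2 fold change of -0.49 ± 0.23 (SE; adjusted p = 0.415 by edgeR). Both carry interleukin-1 signals, and neither passed. On the higher side Il21r had 6.03, 8.02 and 5.09 CPM in AC tumours, against 6.14, 4.37 and 4.98 CPM in model tumours, at 0.30 ± 0.24 (SE; adjusted p = 0.616 by edgeR), and Il2rg had 33.4, 29.6 and 38.9 CPM in AC tumours, against 24.7, 27.9 and 37.2 CPM in model tumours, at 0.18 ± 0.17 (SE; adjusted p = 0.671 by edgeR). Il34 (0.19 ± 0.21 (SE; adjusted p = 0.721 by edgeR)) and Il1rl2 (0.11 ± 0.18 (SE; adjusted p = 0.828 by edgeR)) also had values above 0, which turned below 0 without AC 3. For Il12b, which was not tested, 3 reads in AC against 27 in model tumours gave a ratio 7.68 times lower in AC, with a 95% counting interval of 2.36 to 39.6 that covers counting error alone, and without AC 2 the ratio was 15.9 (2.62 to 650). No gene of the 5 lists of related signalling genes was called in this comparison.

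**Figure D5:**
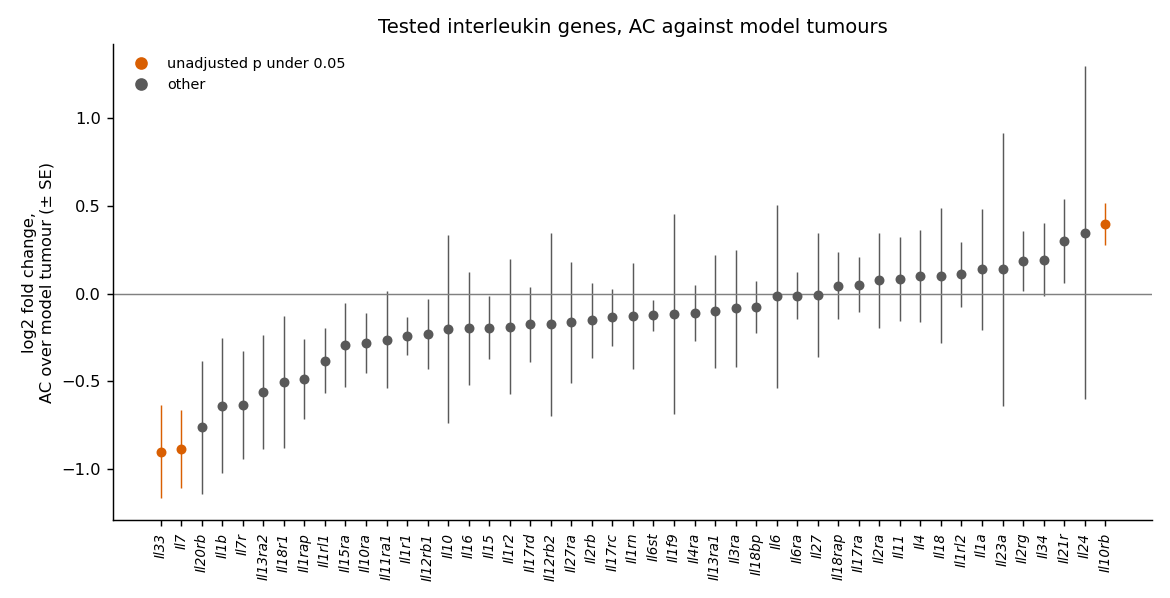
The log2 fold change of AC over model tumours is drawn with its standard error (n = 3 in each group) for the 47 tested interleukin genes, in rising order. Il33, Il7 and Il10rb are the 3 with an unadjusted p under 0.05, and none passed after adjustment.

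Not every member could be measured. The count filter left 31 of the 82 genes out of all 3 comparisons, and 20 of these were ligands, 8 receptor chains, 2 antagonists and 1 the enzyme Il4i1. Il3, Il9, Il17b, Il20 and Il31 had 0 reads in all 9 libraries. The other 26 had at least 1 read, and in 27 of the 31 no library exceeded 1 CPM. The exceptions were Il12a, Il17d, Il21 and Il5ra, each of which passed 1 CPM in healthy colon alone. Il5ra, the interleukin-5 receptor of eosinophils, had no reads in AC tumours, 1, 1 and 0 reads in model tumours and 24, 2 and 1 reads in healthy colon. Summed eosinophil markers were 0.0950 to 0.315 CPM in AC tumours, 0.0518 to 0.372 CPM in model tumours and 1.94 to 3.68 CPM in healthy colon. Siglecf made up most of the healthy colon sums. The first sham library, with 24 reads of Il5ra, had the lowest of these sums, 1.94 CPM against 3.53 and 3.68 CPM. It had the highest sums of B cell markers, 875 CPM against 109 and 53.0 CPM, and of plasma cell markers, 491 CPM against 115 and 106 CPM. The part of cell makeup in the Il5ra value was not tested.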

How the data were processed

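Gene counts and FPKM values were deposited by the authors as tables over 9 libraries, made from total RNA (5 ug) extracted with Trizol, per the labels' protocols. The submitters' processing notes name featureCounts 1.5.0-p3 and mm9, and the aligner and strand setting were not given in those sources. The deposited FPKM values imply exon lengths within 1% of GENCODE M21 (GRCm38) for 96.8% of 22279 genes with at least 20 reads, so coordinates are given on GRCm38. The table holds 56398 features, of which 54409 were paired with a symbol.

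Members were matched by Ensembl identifier. Counts were tested with edgeR 4.0.16 (R 4.3.3; TMM scaling, filterByExpr, robust quasi-likelihood test) on the 6 libraries of each comparison, with Benjamini-Hochberg adjustment over all genes tested and a threshold of 0.05. Log2 fold changes are from that fit, and CPM values were computed from the deposited counts. Intervals of count ratios are exact 95% binomial intervals and cover counting error alone. DESeq2 1.42.0, other scaling factors, no count filter, 1 fit over all 9 libraries, a replicate block and leaving out libraries were alternatives. The code was tested on simulated data. Exons of Il10rb, Il12rb2, Il16, Il1rap, Il2rg, Il4ra, Il6ra and Il7 overlap those of other annotated genes, and reads there may be shared.

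The named genes were, in model against sham, up to 15 a direction with adjusted p under 0.05, groups that did not overlap and at least 1 CPM on average in the higher group. In AC against model they were, each way, the 5 of smallest p. The members, the lists of related genes and markers, and these rules were chosen with earlier results of these data known. Comparisons against sham share the same 3 sham libraries. Same-numbered libraries did not all deviate together over genes (correlations of -0.06, 0.0046 and -0.10 for model and sham, -0.53, 0.44 and -0.31 for AC and model, and 0.13, -0.0056 and 0.083 for AC and sham), so the numbers were not taken to pair samples. Promoter windows came from RefSeq (GRCm38.p6), in which 65 of the members had one.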

Additional observations from a re-analysis of the deposited data

How the results depend on the processing

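The counts of interleukin genes called higher and lower in model against sham were 20 and 10, and kept within 1.5 times of these under every alternative run. They were 22 and 12 with DESeq2, 24 and 14 with no count filter, 28 and 9 with no scaling factors, and 18 to 29 and 10 to 12 with 1 library left out. Of all genes tested, 36.4% were higher and 36.3% lower with DESeq2, 22.7% and 20.5% with no count filter, and 49.7% and 24.2% with no scaling factors. With 1 library left out, 31.4% to 42.4% of all genes tested were higher and 29% to 36.4% lower. Scaling mattered for all genes alike: the median log2 fold change of all genes tested was 0.12 with TMM, 0.02 with RLE factors and 0.72 with no scaling factors. In AC against model no interleukin gene was called higher under any alternative. The lower count of 0 became 2 with DESeq2 and 1 without AC 3, and was 0 to 1 with 1 library left out. Of all genes tested, 0.556% were higher and 1.51% lower with DESeq2, and 0.845% and 2.36% without AC 3, against 0% with all libraries in edgeR. In AC against sham the 18 higher and 12 lower genes became 15 to 24 and 11 to 15 with 1 library left out. There, 30.3% to 38.7% of all genes tested were higher and 28.3% to 36.9% lower. Without both sham 1 and AC 3, a setting added after seeing the data, 30 were called higher, where 41.4% of all genes were, against 35.5% with all libraries. The replicate number as a block gave 21 higher and 9 lower for model against sham, 0 and 0 for AC against model and 17 and 12 for AC against sham. Of all genes tested, it called 34.4% higher and 30.2% lower for model against sham, and 33.5% and 29.9% for AC against sham. The block ended the calls of Il16 (adjusted p = 0.0518) and Il4ra (adjusted p = 0.0636) in model against sham and of Il12rb2 in AC against sham (adjusted p = 0.112), and it brought in Il10ra (1.84) and Il13ra2 (2.05) as higher in model against sham. Among genes that did not pass in AC against model, log2 fold changes above 0 turned below 0 for Il34 at -0.078 without AC 3 and -0.062 without both model 1 and AC 3, for Il1rl2 at -0.074 without AC 3, -0.10 without both and -0.012 without model 3, and for Il2rg at -0.058 without both. With 1 library left out they ran from -0.078 to 0.36 for Il34, from -0.074 to 0.27 for Il1rl2 and up to 0.37 for Il2rg. The cause was not tested. Genes with fewer than about 3 reads a library lie at the limit of detection, which depth sets.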

Other observations

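Receptors of related cytokines that carry no interleukin symbol were also measured. Of 9 listed 8 could be tested, and 5 were higher and 1 lower in model tumours than in healthy colon, where 36.8% of all genes tested were higher and 32.9% lower. Crlf2, the receptor of thymic stromal lymphopoietin, had 10.6, 9.52 and 11.6 CPM in AC tumours, 11.2, 8.14 and 12.6 CPM in model tumours and 1.48, 1.20 and 2.05 CPM in healthy colon, with a log2 fold change of 2.76 ± 0.32 (SE; adjusted p = 3.85e-04 by edgeR) for model against sham. Csf2rb, the signalling chain shared by interleukin-3, interleukin-5 and granulocyte-macrophage colony-stimulating factor, had 30.8, 37.8 and 22.7 CPM in AC tumours, 31.0, 36.1 and 30.6 CPM in model tumours and 9.95, 6.17 and 6.30 CPM in healthy colon, with 2.13 ± 0.26 (SE; adjusted p = 5.04e-04 by edgeR) on the same scale. The interleukin-3 binding chain Il3ra had 0.998, 1.27 and 1.42 CPM in AC tumours, 1.12, 1.05 and 1.76 CPM in model tumours and 1.94, 3.28 and 1.70 CPM in healthy colon and was not called (adjusted p = 0.105 for model against sham). It was lower in AC against sham without the first sham library (-1.08, adjusted p = 0.0438) and with DESeq2 (adjusted p = 0.0211).

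Il24, an interleukin-10 family cytokine, had 21, 22 and 0 reads in AC tumours, 7, 17 and 14 reads in model tumours and 2, 0 and 0 reads in healthy colon. The ratio of CPM was 14.6 for AC against sham (95% counting interval 3.80 to 124) and 11.0 for model against sham (2.84 to 94.1). AC 3 had 0 reads while the other 2 AC libraries had the 2 highest counts. Both healthy colon reads were in the first sham library, without which the bounds were at least 3.26-fold and at least 2.59-fold higher against a floor of 3 reads a library. Il24 had too few reads for the full test, and was called higher in AC against sham without AC 3 (4.24, adjusted p = 0.0129) and in model against sham without the first sham library (6.47, adjusted p = 0.00774) or without model 1 (3.71, adjusted p = 0.0208). Il23a, the p19 subunit of interleukin-23, had 24, 21 and 5 reads in AC tumours, 9, 37 and 6 reads in model tumours and 4, 2 and 6 reads in healthy colon. The groups overlapped, in AC through AC 3 alone, and without AC 3 Il23a was called higher in AC against sham (1.91, adjusted p = 0.0208).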
